A study of Homo sapiens with 15 samples.

Results

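The genes described here encode 10 proteins of the light response of cone photoreceptors: the opsins OPN1SW and OPN1LW, the transducin subunits GNAT2 and GNGT2, the phosphodiesterase subunits PDE6C and PDE6H, the channel subunits CNGA3 and CNGB3, the calcium sensor GUCA1C and the arrestin ARR3. They were chosen by name, and all 10 were found by symbol among the 19684 genes of the deposited tables. Poly(A) RNA was sequenced from 15 libraries of BC1-GFP, 1 human induced pluripotent stem cell (hiPSC) line, and of its derivatives, with 3 libraries in each of 5 groups. The groups were undifferentiated hiPSCs, neural retina layers of retinal organoids on day 70 (D70-ROs) and day 150 (D150-ROs) of differentiation, and the cells grown out of dissociated D150-RO neural retina in serum, taken at passage 1 (P1 iMGCs) and passage 5 (P5 iMGCs). The last are labelled Müller glial cells, and iMGC stands for induced Müller glial cell. All groups share the same line and no group carried a further treatment, while the organoids were pooled within a sample and came from one line only.

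In a cone, light converts an opsin, which activates the cone transducin made of GNAT2, GNB3 and GNGT2. Transducin releases the inhibitory subunit PDE6H from the phosphodiesterase PDE6C, cyclic GMP falls, and the channel formed by CNGA3 and CNGB3 closes. ARR3, the cone arrestin, quenches the opsin, and GUCA1C, a guanylate cyclase activating protein, senses calcium so that cyclic GMP can be restored. Rods use related proteins from separate genes (GNAT1, GNGT1, PDE6A, PDE6B, PDE6G, CNGA1, CNGB1 and SAG), and in the developing human retina cones are born before rods.

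The stretches upstream of the genes' starts are shown first, because transcription factors of photoreceptors act there and because the members rose together in the organoids. RefSeq (GRCh38.p14) gave an entry for 8 of the 10 members, and the 250 bases before each start were searched on both strands for 3 motifs. The homeodomain motif TAATCC, of the kind bound by CRX, lay upstream of 2 of the 8 members, PDE6C and OPN1SW, and was found in 5.62% of 35116 upstream stretches of all genes. The nuclear receptor half-site AGGTCA was found upstream of GUCA1C and GNAT2 (in 12.1% of all), GNAT2 holding it in only 1 of its 2 entries, and the E-box CAGCTG upstream of none (14.0% of all). No motif contains another. PDE6H, GUCA1C and ARR3 are printed because they had the highest levels in D150-ROs among members with an entry, and PDE6C and OPN1SW because they hold TAATCC, which was seen before they were chosen. Capitals mark a match to a motif, on either strand, and each run ends at the base before the annotated start.
PDE6H (chr12:14972792-14973041, plus strand): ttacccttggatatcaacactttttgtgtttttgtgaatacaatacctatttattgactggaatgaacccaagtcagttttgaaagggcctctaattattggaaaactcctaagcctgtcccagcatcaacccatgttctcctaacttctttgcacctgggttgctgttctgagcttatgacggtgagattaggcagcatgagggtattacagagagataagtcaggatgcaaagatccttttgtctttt
GUCA1C (chr3:108953880-108954129, minus strand): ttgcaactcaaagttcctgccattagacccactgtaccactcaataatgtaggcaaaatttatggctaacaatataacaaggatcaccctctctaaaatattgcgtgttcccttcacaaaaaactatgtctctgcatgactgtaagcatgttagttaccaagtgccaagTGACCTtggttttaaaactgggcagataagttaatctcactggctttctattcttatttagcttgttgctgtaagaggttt
ARR3 (chrX:70268084-70268333, plus strand): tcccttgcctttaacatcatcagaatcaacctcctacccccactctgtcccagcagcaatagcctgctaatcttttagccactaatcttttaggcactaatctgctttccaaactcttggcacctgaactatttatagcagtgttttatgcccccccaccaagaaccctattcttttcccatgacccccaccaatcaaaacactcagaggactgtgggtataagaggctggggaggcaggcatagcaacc
PDE6C (chr10:93612287-93612536, plus strand): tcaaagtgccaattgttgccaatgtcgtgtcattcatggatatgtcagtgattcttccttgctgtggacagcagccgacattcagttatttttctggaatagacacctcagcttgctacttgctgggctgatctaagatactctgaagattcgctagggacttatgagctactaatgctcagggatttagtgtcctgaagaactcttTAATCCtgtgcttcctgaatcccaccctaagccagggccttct
OPN1SW (chr7:128775795-128776044, minus strand): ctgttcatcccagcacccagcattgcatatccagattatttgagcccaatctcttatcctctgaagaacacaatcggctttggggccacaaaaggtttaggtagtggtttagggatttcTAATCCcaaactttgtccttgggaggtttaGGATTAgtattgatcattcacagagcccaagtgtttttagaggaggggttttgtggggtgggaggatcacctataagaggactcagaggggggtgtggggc
The match in PDE6C began 43 bases before the start, and those in OPN1SW 131 and 101 bases before it. A match is a description of these letters only, and the stretches of PDE6H and ARR3 held none of the 3 motifs.

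The libraries held between 11349600 (D70-RO replicate 2) and 20398755 estimated counts. The sources give 2 or 3 independent experiments for the hiPSCs and organoids, so p-values measure the spread between the deposited libraries, which may be partly technical. The study's notes speak of more than 1 sequencing provider, but no label ties a library to one, so provider and group cannot be told apart. The pluripotency markers POU5F1, NANOG, LIN28A, TDGF1 and DPPA4 summed to 3161 to 3344 FPKM (fragments scaled by transcript length and library size) in hiPSCs and to at most 8.96 elsewhere. CRX and RCVRN, which mark photoreceptors, were at 136 to 150 and 257 to 282 FPKM in D150-ROs. Of the Müller glia markers, RLBP1 and AQP4 had no count in any P1 iMGC library, and AQP4 had none in P5 iMGCs, though AQP4 averaged only 0.193 FPKM in D150-ROs. CLU averaged 66.0 and 22.1 FPKM in P1 and P5 iMGCs, GLUL 13.4 and 14.6, SOX9 5.21 and 3.59 and SLC1A3 0.373 and 1.19, while VIM, a filament gene that many cultured cells express, reached 2141 to 2901 FPKM. In D150-ROs the averages were higher for CLU (727), GLUL (100), SOX9 (42.6), SLC1A3 (28.0) and RLBP1 (33.5) and lower for VIM (1065). In bulk RNA, fewer cells of a type and less RNA per cell cannot be told apart.

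The summed level of the cone genes was 2.70 to 3.74 FPKM per library in hiPSCs, 108 to 141 on day 70 and 647 to 886 on day 150, and lay at 0 to 0.32 in P1 iMGCs and 0.53 to 0.72 in P5 iMGCs. No group overlapped another on this sum. In counts, the members drew 188 in the 3 hiPSC libraries, 5903 in D70-ROs, 35845 in D150-ROs and 40 in the 6 iMGC libraries together.

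**Figure D1:**
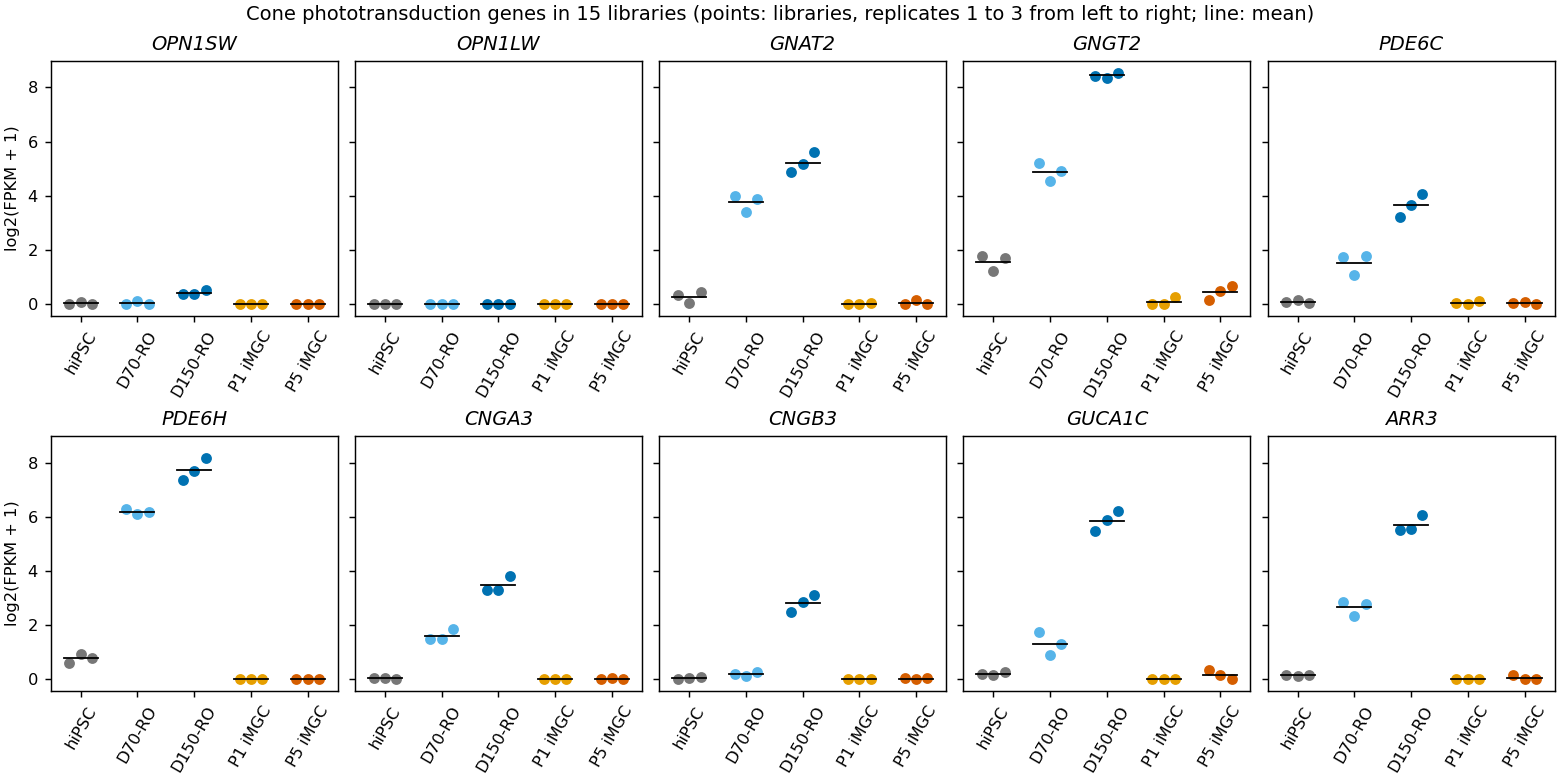
Level of each cone gene as log2(FPKM + 1) in the 15 libraries, with 3 points per group in the order of replicates 1 to 3 and a line at the mean. Of the 10 genes, 8 step up from hiPSCs to D70-ROs and again to D150-ROs and lie near 0 in iMGCs; OPN1SW reaches at most 0.44 FPKM, and OPN1LW is at 0 in all libraries.

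The opsins, which set the wavelength that a cone absorbs, were at or near 0. OPN1SW, the blue cone opsin (chromosome 7, 128772491 to 128775790, GRCh38), had 5, 5 and 8 counts in the D150-RO libraries, or 0.30, 0.28 and 0.44 FPKM. It had 1 count in all hiPSC libraries together, 1 in all D70-RO libraries together and none in iMGCs, so each D150-RO library was above every other library. The ratio of 18 counts to 1 between D150-ROs and D70-ROs, scaled by library size, was 3.98 on the log2 scale, with a 95% exact interval of 1.32 to 9.36 that covers counting error only. OPN1LW, the red cone opsin (chromosome X, 154144224 to 154159032), had no count in any of the 15 libraries, which allows up to 3 counts per library. Its near-identical neighbours took reads: OPN1MW, the green cone opsin, was estimated at 18.7, 29 and 18.8 counts in D150-ROs (0.98, 1.43 and 0.99 FPKM), with OPN1MW2 at 2.28, 0 and 4.18 counts. Reads of these copies cannot be assigned with certainty, and the values of OPN1LW and OPN1MW are uncertain in that respect.

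GNAT2, the catalytic subunit of cone transducin (chromosome 1, 109603267 to 109619929), was at 0.27, 0.04 and 0.36 FPKM in the hiPSC libraries, at 14.9, 9.64 and 13.6 in the D70-RO libraries and at 28.4, 34.9 and 47.6 on day 150. GNGT2, the gamma subunit (chromosome 17, 49202791 to 49210574), was at 2.47, 1.34 and 2.24 FPKM in the hiPSC libraries, at 35.9, 22.4 and 29.3 in the D70-RO libraries and at 347, 323 and 373 on day 150. For both genes the 3 groups did not overlap. GNGT2 was the one member above 1 FPKM in every hiPSC library. GNB3, the beta subunit that completes the complex, was at 82.6 to 102 FPKM on day 70 and 427 to 488 on day 150.

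Both transducin genes share exon bases with a gene on the opposite strand, and the sources used here do not state whether the counting used the strand. GNAT2 shares 1339 of its 1381 exon bases with GNAI3, which was at 2.70 to 4.08 FPKM in hiPSCs, 6.64 to 8.76 in D70-ROs, 9.96 to 12.6 in D150-ROs and 4.54 to 5.82 in iMGCs. In iMGCs, where GNAI3 was at those levels, GNAT2 was at 0.12 FPKM or less. GNGT2 shares 131 of 1689 exon bases with ABI3, which was at 1.27 to 1.90 FPKM in hiPSCs and 0.22 to 0.76 in D150-ROs.

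PDE6C, the catalytic subunit of the cone phosphodiesterase (chromosome 10, 93612588 to 93666010), was at 0.05, 0.11 and 0.04 FPKM in the hiPSC libraries, at 2.30, 1.09 and 2.43 in the D70-RO libraries and at 8.36, 11.6 and 16.0 on day 150. PDE6H, its inhibitory subunit (chromosome 12, 14973022 to 14981865), was at 0.53, 0.92 and 0.72 FPKM in the hiPSC libraries, at 77.3, 68.2 and 71.0 in the D70-RO libraries and at 162, 206 and 289 on day 150. PDE6H was the highest member in D70-ROs, and again these 3 groups did not overlap for either gene.

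CNGA3, the main subunit of the cone channel (chromosome 2, 98346155 to 98398601), was at 0.01 to 0.04 FPKM in the hiPSC libraries, at 1.81, 1.82 and 2.62 in the D70-RO libraries and at 8.73, 8.93 and 13.1 on day 150. CNGB3, the modulatory subunit (chromosome 8, 86553977 to 86743675), was at 0.01 to 0.06 FPKM in the hiPSC libraries, at 0.15, 0.08 and 0.20 in the D70-RO libraries and at 4.60, 6.28 and 7.54 on day 150. For both subunits the 3 groups were apart. The subunits differed in the D70-RO libraries, where CNGA3 had 69 to 157 counts and CNGB3 4 to 16.

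GUCA1C, the calcium sensor (chromosome 3, 108907792 to 108953895), was at 0.12 to 0.20 FPKM in the hiPSC libraries, at 2.31, 0.84 and 1.46 in the D70-RO libraries and at 42.9, 58.3 and 73.4 on day 150. ARR3, the cone arrestin (chromosome X, 70268305 to 70281840), was at 0.08 to 0.12 FPKM in the hiPSC libraries, at 6.18, 4.01 and 5.87 in the D70-RO libraries and at 44.3, 45.6 and 65.6 on day 150. The hiPSC, D70-RO and D150-RO libraries did not overlap for either gene, and GUCA1C rested on 9 to 43 counts per D70-RO library.

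FPKM are scaled per length, so levels can be ordered between genes. In D150-ROs the order of mean FPKM was GNGT2 (348), PDE6H (219), GUCA1C (58.2), ARR3 (51.8), GNAT2 (37.0), PDE6C (12.0), CNGA3 (10.2), CNGB3 (6.14) and OPN1SW (0.34). The neighbours GUCA1C and ARR3, ARR3 and GNAT2, and PDE6C and CNGA3 overlapped in their ranges over the 3 libraries. In D70-ROs the order was PDE6H (72.2), GNGT2 (29.2), GNAT2 (12.7), ARR3 (5.35), CNGA3 (2.08), PDE6C (1.94), GUCA1C (1.54) and CNGB3 (0.143), with overlap between CNGA3 and PDE6C and between PDE6C and GUCA1C. GUCA1C stood seventh on day 70 and was among the top members on day 150.

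The comparison of D70-ROs with hiPSCs asks which cone genes are on by day 70. Of the 10 members, 6 had enough signal to be tested (at least 1 FPKM in at least 3 of the libraries compared), and all of these 6 were called higher in D70-ROs (edgeR quasi-likelihood test, requiring a 2-fold change or more together with p under 0.05 after Benjamini-Hochberg adjustment). The same rule called 22.5% of the 12954 genes tested higher. Of the 6, all but GNGT2 passed the filter through the D70-RO libraries alone and so had to differ, which makes the count a description. PDE6H changed by 6.49 on the log2 scale (SE 0.21, adjusted p = 9.01e-10), CNGA3 by 6.43 (SE 0.40, adjusted p = 8.83e-08) and GNAT2 by 6.04 (SE 0.37, adjusted p = 7.87e-08). ARR3 changed by 5.60, PDE6C by 4.70 and GNGT2 by 3.80, the last from its higher level in hiPSCs. Without hiPSC replicate 3 the change of GNAT2 was 6.96, and the gene had 12 counts in all 3 hiPSC libraries together. Below the filter, GUCA1C changed by 3.09 (SE 0.58, adjusted p = 2.72e-04) and CNGB3 by 2.07 (SE 0.72, adjusted p = 0.0209) in the edgeR fit without a filter, which called 8 members. That fit called 7290 of 17474 genes in either direction.

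The comparison of D150-ROs with D70-ROs asks how far cone genes went on rising after day 70. Here 8 members were tested and all 8 were called higher, against 16.6% of the 12855 genes tested. CNGB3 passed the filter through the D150-RO libraries alone and so had to rise. GUCA1C, at 0.84 FPKM in D70-RO replicate 2, also needed D150-RO libraries to pass. For these genes the call is a description. CNGB3 rose by 5.09 on the log2 scale (SE 0.29, adjusted p = 1.19e-06) and GUCA1C by 4.96 (SE 0.30, adjusted p = 1.56e-06). GNGT2 rose by 3.33 (SE 0.15), ARR3 by 2.97 (SE 0.20), PDE6C by 2.37 (SE 0.30) and CNGA3 by 2.13 (SE 0.20). The smallest changes were those of GNAT2, 1.43 (SE 0.17, adjusted p = 8.82e-05), and PDE6H, 1.38 (SE 0.18, adjusted p = 1.49e-04). Against D150-ROs, then, D70-ROs already held 34.4% of the mean FPKM of GNAT2 and 33.0% of that of PDE6H, 20.3% for CNGA3, 16.2% for PDE6C and 10.3% for ARR3, but 8.40% for GNGT2, 2.64% for GUCA1C and 2.33% for CNGB3. The comparison of D150-ROs with hiPSCs shares libraries with both others, and in it the same 8 members were tested and called higher in D150-ROs (29.8% of 13344 genes); 7 of them, all but GNGT2, passed the filter through the D150-RO libraries alone and had to differ. The log2 changes were 7.10 (PDE6C) to 8.58 (ARR3).

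**Figure D2:**
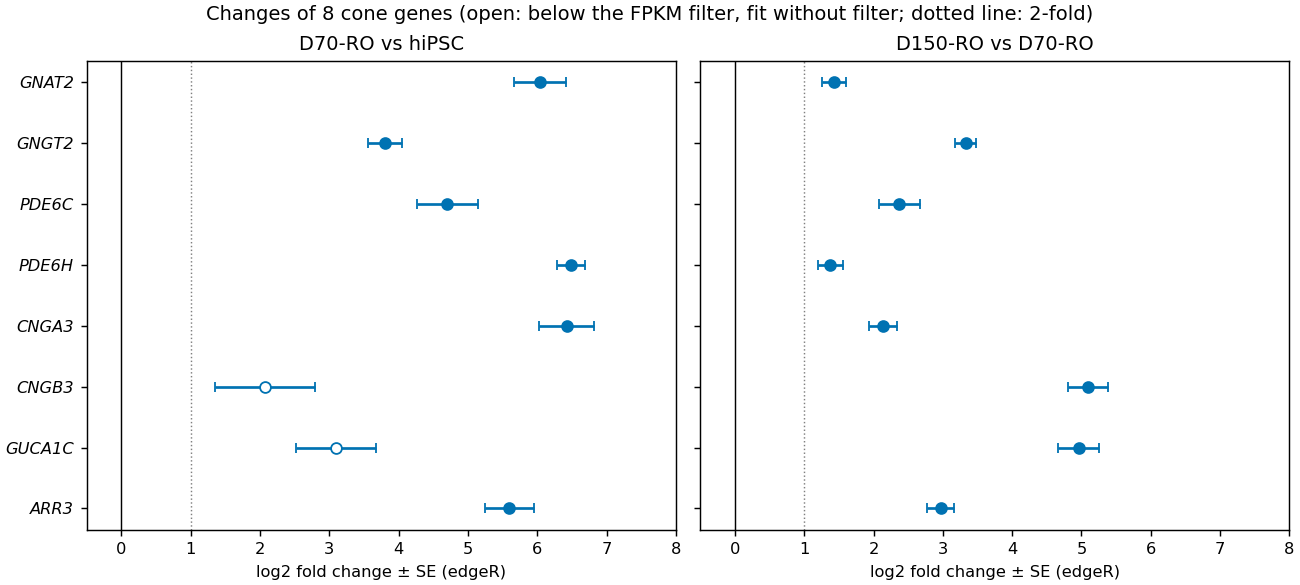
Log2 fold change of 8 cone genes between D70-ROs and hiPSCs and between D150-ROs and D70-ROs, with standard errors from edgeR, 3 libraries a group. Open points are genes below the expression filter. GNAT2 and PDE6H lie at 6.04 and 6.49 in the first step and at 1.43 and 1.38 in the second, while CNGB3 and GUCA1C lie at 2.07 and 3.09 and then at 5.09 and 4.96.

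The ratio between subunits of the same complex also differed between the ages. By FPKM, CNGB3 stood at 0.0677 ± 0.0208 of CNGA3 (SD, n = 3) in D70-ROs and 0.602 ± 0.0909 in D150-ROs. GNGT2 was 2.29 ± 0.13 times GNAT2 in D70-ROs and 9.77 ± 2.24 times in D150-ROs. PDE6H went the other way against PDE6C, from 41.8 ± 18.1 to 18.4 ± 0.872 times its level. The groups did not overlap for these 3 ratios, and the exact permutation test gave p = 0.1 for each, the smallest that 3 against 3 libraries allow (0.125 after Benjamini-Hochberg adjustment over the 10 ratios tested). GNB3 against GNAT2, at 7.51 ± 2.70 and 12.5 ± 2.41 (n = 3 each), overlapped between the groups (two-sided exact permutation p = 0.2). The ratios were chosen after the levels were seen.

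Apart from GNB1, the rod genes averaged 5.20 FPKM or less in D70-ROs. Of the 11 rod genes, 6 were tested between D70-ROs and hiPSCs, where GNGT1 and CNGB1 rose and PDE6G fell. Of all genes tested there, 22.5% were called higher and 21.1% lower. GNGT1 and CNGB1 passed the filter through the D70-RO libraries alone and so had to rise. Between D150-ROs and D70-ROs 9 were tested and 8 rose, against 16.6% of all genes tested. GNAT1, PDE6A and SAG passed through the D150-RO libraries alone and had to rise. The median log2 change was 5.97 over the rod genes tested, against 2.67 over the tested cone genes and -0.01 over all genes. Both lists hold genes that had to rise, so the medians are a description. D70-ROs held 0.614% of the D150-RO level of GNAT1, 1.43% of GNGT1, 0.467% of PDE6A, 5.75% of PDE6B, 2.89% of PDE6G, 1.02% of CNGB1 and 0.432% of SAG. In these 7 pairs the cone gene had the larger share of its later level on day 70. The other rod-list genes detected in D70-ROs did not follow: GNB1, the beta subunit, was at 53.8% against 20.2% for its cone partner GNB3, and SLC24A1, an exchanger, at 30.7% against 2.49% for the related SLC24A2. The share of GNB1 holds for FPKM only. Its counts were 30917 in D70-ROs and 31783 in D150-ROs, and the edgeR log2 change was -0.16, not called.

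**Figure D3:**
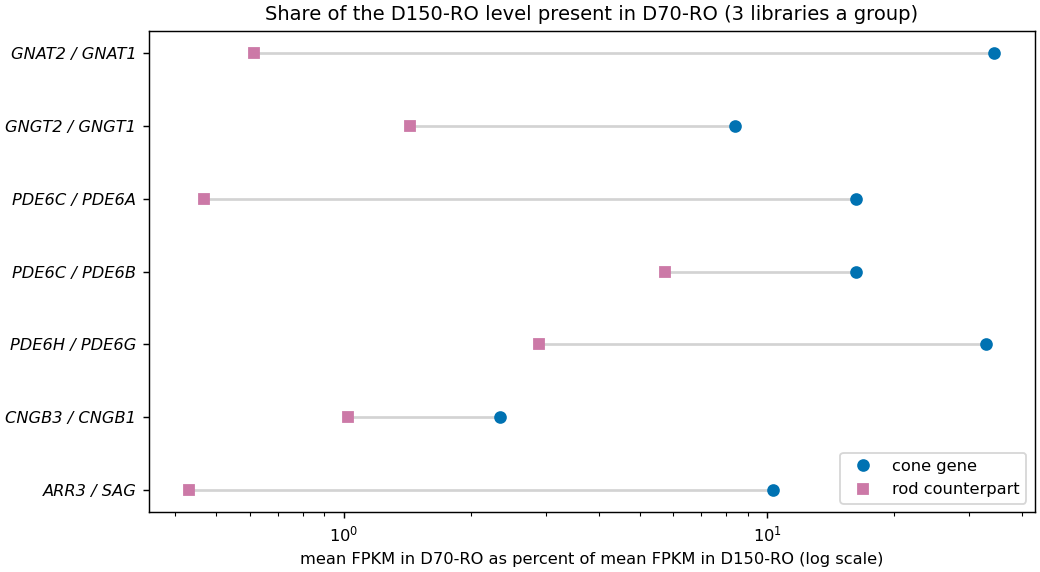
Mean FPKM in D70-ROs as a percent of the mean in D150-ROs, on a log scale, for 7 pairs of a cone gene (circle) and its rod counterpart (square), 3 libraries a group. The circle lies to the right of the square in every pair, from 34.4% against 0.614% for GNAT2 and GNAT1 to 2.33% against 1.02% for CNGB3 and CNGB1.

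Within a library, the ratio of cone to rod gene was lower on day 150 for 5 of the 6 ratios tested, with no overlap between the ages. GNAT2 was 17.2 to 55.3 times GNAT1 in D70-ROs and 0.270, 0.415 and 0.699 times GNAT1 in D150-ROs, so the rod gene had become the higher one in all 3 libraries. PDE6H was still above PDE6G in D150-ROs, by 2.89 to 8.16 times, as was GNGT2 above GNGT1, by 2.51 to 3.99 times. ARR3 was 4.24 to 9.94 times SAG and CNGA3 was 8.64 to 17.2 times CNGA1 there. PDE6C was 0.777 to 2.56 times PDE6A and 0.0773 to 0.195 times PDE6B. CNGB3 was below CNGB1 at both ages, at 0.101 ± 0.0408 of it in D70-ROs and 0.0452 ± 0.0153 in D150-ROs, and these overlapped (two-sided exact permutation p = 0.2, n = 3 each). The other 5 gave the smallest p the design allows (p = 0.1 each, two-sided exact permutation, 0.125 adjusted over the 10 ratios). Several rod genes had few counts in D70-ROs, down to 8 for PDE6A over 3 libraries, so those ratios are rough.

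**Figure D4:**
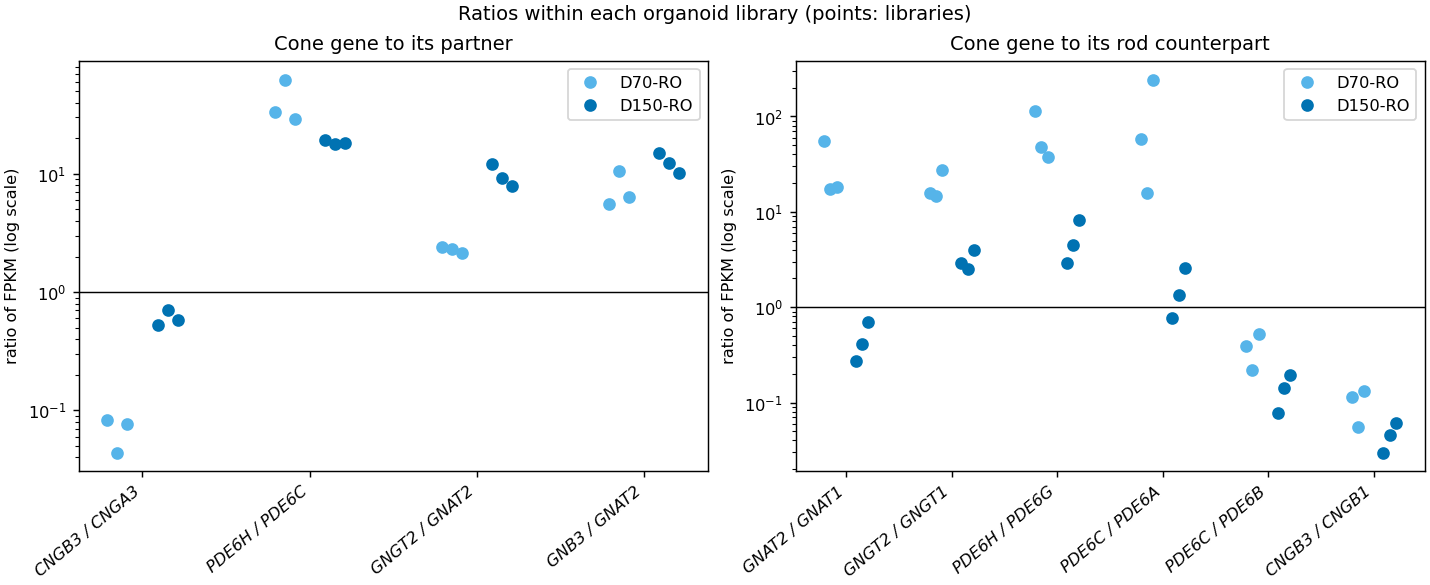
Ratio of FPKM within each organoid library, on a log scale, of cone genes to their partners (left) and to their rod counterparts (right), with 3 points for D70-ROs and 3 for D150-ROs. CNGB3 to CNGA3 moves from 0.0677 to 0.602 on average, and GNAT2 to GNAT1 crosses the line at 1.

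The summed FPKM of the 10 cone genes as a share of the cone and rod lists together was 34.5 ± 4.24% in D70-ROs and 44.6 ± 6.73% in D150-ROs (SD, n = 3 each; two-sided exact permutation p = 0.1). This direction rested on GNB1, a transducin subunit of rods that other cells also express and that was at 189 to 230 FPKM already in hiPSCs. GNB1 averaged 226 FPKM in D70-ROs and 420 in D150-ROs, while its counts were 30917 and 31783. The cone list does not hold its counterpart GNB3, which averaged 90.7 FPKM in D70-ROs and 448 in D150-ROs. Without GNB1 the share was 91.6 ± 0.986% in D70-ROs and 59.7 ± 7.36% in D150-ROs, so that it was lower by 31.9 points on day 150. With expected counts, which are not scaled by length, the shares were 15.2 ± 2.00% and 31.0 ± 5.94%.

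Other genes of the cone pathway and its regulators were followed by fixed lists. Of 13 partners and shared genes of phototransduction, 3 of 5 tested rose by day 70 (GNB3, RCVRN and GUCA1B), against 22.5% of all genes tested. Between days 70 and 150, 9 of 10 tested rose, against 16.6%. In the first step RCVRN and GUCA1B passed the filter through the D70-RO libraries alone. In the second, GUCY2D, GRK1, RGS9BP and SLC24A2 passed it through the D150-RO libraries alone. Those genes had to rise, so the counts are a description. Between days 70 and 150 RCVRN, the calcium sensor recoverin, rose by 5.01 (SE 0.11) and GUCY2D, the retinal guanylate cyclase, by 3.98 (SE 0.25). GUCA1A, another cyclase activating protein, rose by 3.58 (SE 0.22). GRK7, the cone opsin kinase, was below the filter at 0.78 to 1.56 FPKM in D150-ROs and 0 to 0.03 in D70-ROs.

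Of 10 photoreceptor transcription factors, 7 of 9 tested rose by day 70, against 22.5% of all genes tested. CRX, NEUROD1, PRDM1, RXRG and THRB passed the filter through the D70-RO libraries alone and so had to rise. RXRG and THRB, nuclear receptors of cones, were at 47.7 to 52.1 and 27.0 to 36.3 FPKM in D70-ROs, log2 changes of 7.24 and 5.40 over hiPSCs. Between days 70 and 150 they changed by 0.18 (SE 0.11, adjusted p = 0.167) and 0.06 (SE 0.14, adjusted p = 0.715) and were not called, while all 8 tested cone phototransduction genes rose. CRX, the factor shared by both photoreceptor types, rose by 1.83 (SE 0.08) in that step. NRL and NR2E3, the rod factors, went from 2.43 to 4.07 and 0.58 to 0.66 FPKM on day 70 to 180 to 238 and 52.3 to 63.0 FPKM on day 150.

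Markers of other retinal or related cells moved in the same step. Of the bipolar cell markers 4 of 4 tested rose between days 70 and 150, against 16.6% of all genes tested. TRPM1 was not tested and averaged 0.07 and 0.057 FPKM. The bipolar list summed to 19.7 to 20.8 FPKM on day 70 and 218 to 256 on day 150, of which CABP5 averaged 12.8 and 207. Of the pineal markers 3 of 4 rose, all but TPH1. Their sum went from 40.6 to 56.5 FPKM to 202 to 215, of which CHRNA3 averaged 39.9 and 163. GRM6 and ASMT passed the filter through the D150-RO libraries alone and had to rise. Pineal cells share part of the phototransduction genes. All 5 retinal progenitor markers fell (16.7% of all genes tested were called lower). The part of these cells in the cone gene values was not tested.

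The 3 D150-RO libraries differed among themselves in cone genes. Replicate 3 was the highest for all 9 detected members and replicate 1 the lowest for 7 of the 9. The ratio of replicate 3 to replicate 1 ranged from 1.08 (GNGT2) to 1.91 (PDE6C) with a median of 1.64, and it was at least 1.4 for 8 of the 9, whereas 3.11% of the 12340 genes expressed in these libraries were at least 1.4-fold higher in replicate 3. Rod genes went the other way: replicate 3 was the lowest for 8 of 10 described here, with a median ratio of 0.753. Replicate 3 was at least 1.2-fold lower than replicate 1 for 8 of the 10, whereas 8.54% of the 12340 genes were. GNAT1 was at 105, 84.1 and 68.2 FPKM in replicates 1 to 3. NRL (238, 215 and 180 FPKM) followed the rod genes, while THRB (30.2, 30.2 and 41.6 FPKM) was highest in replicate 3. SLC24A1, a sodium and calcium exchanger on the rod list, was the exception among rod genes at 1.47 by FPKM. By counts it was no exception, at 214, 221 and 207 in replicates 1 to 3. These limits were set after the values were seen. Without replicate 3, all 8 members stayed called between D150-ROs and D70-ROs, and the smallest change was 1.13 for PDE6H.

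**Figure D5:**
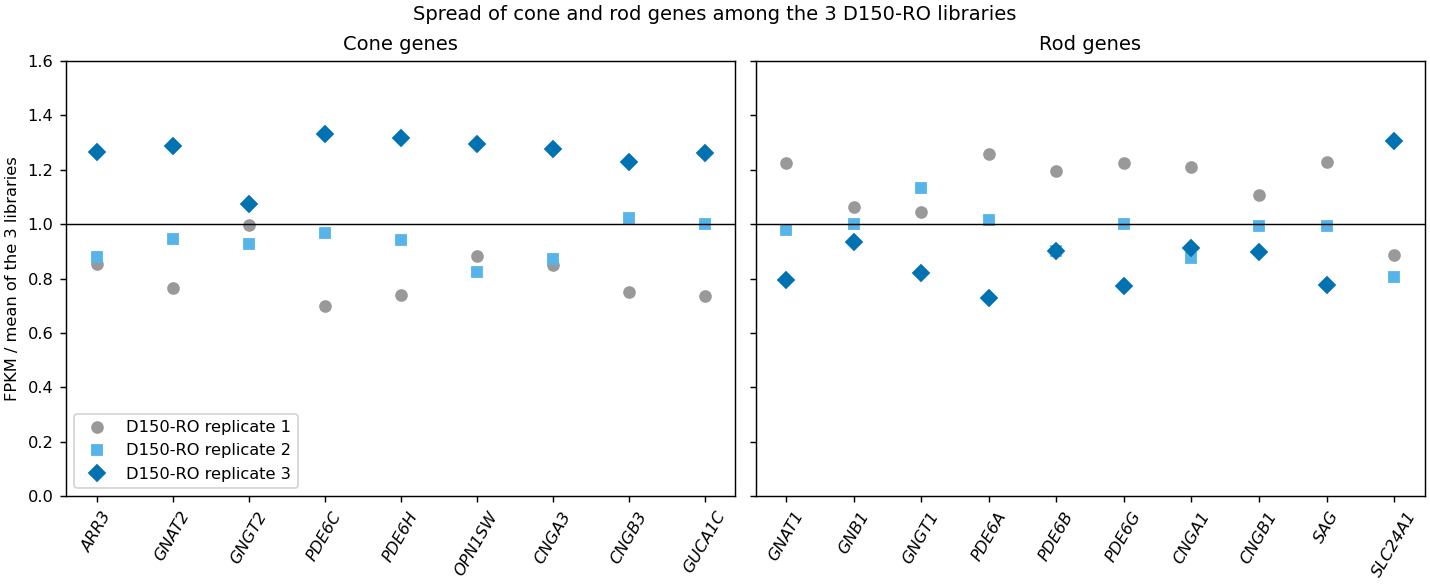
FPKM of each gene in the 3 D150-RO libraries divided by their mean, for 9 cone genes and 10 rod genes. Replicate 3 (dark diamonds) is the highest point for 9 of 9 cone genes and the lowest for 8 of 10 rod genes.

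In D70-ROs, replicate 2 was the lowest for 6 of the 7 members that reached 0.25 FPKM there, and it was also the shallowest library. The same library was the highest for 4 of 5 retinal progenitor and 6 of 6 Müller glia genes. The gap was widest for GUCA1C, at 0.84 FPKM against 2.31 and 1.46, and for PDE6C, at 1.09 FPKM against 2.30 and 2.43. The part of depth in this was not tested.

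The comparison of iMGCs with D150-ROs asks what is left of cone expression in the cultured cells. All 8 tested members were called lower in the 6 iMGC libraries, against 23.8% of the 13024 genes tested. All 8 had passed the filter through the D150-RO libraries alone and so had to be lower, which makes the count a description. PDE6H fell from 7940 counts to none, which is at least 3494-fold lower against a limit of 3 counts over the group. GNGT2 changed by -10.13 on the log2 scale (SE 0.25, adjusted p = 7.84e-12), GUCA1C by -9.30 (SE 0.35) and PDE6C by -7.89 (SE 0.37), with 17, 5 and 10 counts left in the 6 libraries. ARR3 had 1 count left, GNAT2 2, CNGA3 2 and CNGB3 3, and the upper ends of the exact intervals of their log2 ratios were -9.45, -8.71, -8.30 and -7.60. OPN1SW was at least 7.92-fold lower. In the same libraries the mesenchymal markers COL1A1, COL1A2, COL3A1, DCN and LUM all rose (20.8% of all genes tested were called higher) and summed to 2182 to 2720 FPKM, against 5.73 to 6.65 in D150-ROs. COL3A1, DCN and LUM passed the filter through the iMGC libraries alone and had to rise.

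Between the passages no member passed the filter, so none was tested (1.94% of 11366 genes were called higher in P5 iMGCs and 0.977% lower). In P1 iMGCs 7 of the 10 members had no count in any library, and in P5 iMGCs 3 had none (PDE6H, OPN1SW and OPN1LW). GNGT2 had 0, 0 and 3 counts in P1 iMGCs and 1, 5 and 8 in P5 iMGCs, a log2 ratio of 2.29 with an exact interval of 0.44 to 4.73. Over all members the counts were 10 and 30. In the edgeR fit without a filter, 0 of 7 members were called and 1, GNGT2, had an unadjusted p under 0.05 (adjusted p = 0.126). The interval of GNGT2 covers counting error only and not the spread between libraries.

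Among 13915 genes expressed in at least 3 libraries, those whose profile over the 15 libraries was most like the mean of the cone members, on the log2(FPKM + 1) scale, included SV2B, a synaptic vesicle protein (Pearson r = 0.998). PLPPR4, PDC, MAK, GUCA1B, FAM107A, NEUROG1, SCN3B and EGFLAM followed, down to r = 0.997. The 15 points fall into 5 groups, so r describes mostly the differences between groups, and 183 genes had r over 0.98. SV2B averaged 5.67 FPKM on day 70 and 44.1 on day 150, and PDC, which encodes the transducin-binding protein phosducin, 19.3 and 352. Among the members themselves r ranged from 0.902 (CNGB3) to 0.998 (ARR3), with OPN1SW and OPN1LW too low to be included. The mean contains each member, which raises these r values.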

How the data were processed

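RNA-seq of 15 libraries was analysed at the level of genes. Per the labels, the authors used HISAT2 for mapping paired-end reads, StringTie for assembly and RSEM for the values of genes. The authors deposited expected counts and FPKM per gene. The versions, the genome build and the strand setting are not given in the sources used here. The authors also described a correction between batches of data, and whether the deposited values carry it is not given. Of 42 value columns in 3 tables, 30 were used; the other 12, in a table whose iMGC columns carry no passage, were not. Gene positions came from GENCODE 29.

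Expected counts were rounded and tested with edgeR 4.0.16 (TMM, glmQLFit and glmQLFTest) in R 4.3.3 on genes that reached an FPKM of 1 in 3 or more of the compared libraries. A standard error is the log2 change divided by the square root of F. Groups came from the sample labels, and P1 and P5 iMGCs formed 1 group against D150-ROs. The fits were tested on simulated data. Alternatives were DESeq2 1.42.0, limma 3.58.1 on log2(FPKM + 1) and log2(FPKM + 0.1), other filters and scalings, a test against a 2-fold change, a replicate block and leaving out libraries. Library totals were 11349600 to 20398755, and intervals at 95% cover counting error only. All members, their rod counterparts, listed partners, overlapping genes and near-identical copies, the genes of highest level in other lists and the 10 most similar profiles were to be named. The members and lists were chosen with earlier results of these data known. Some items are not reported here.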

Additional observations from a re-analysis of the deposited data

How the results depend on the processing

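The member counts stayed within 1.5 times of the values reported under every alternative run, and no member's call was lost: 6 members were called in D70-ROs against hiPSCs (8 with no filter), 8 in D150-ROs against hiPSCs (9 with no filter), 8 in D150-ROs against D70-ROs (9 with no filter), 8 in iMGCs against D150-ROs (9 with no filter) and 0 between passages. With no filter, the organoid comparisons called, in that order, 7290 of 17474, 9574 of 17618 and 5290 of 17264 genes in either direction. The weakest calls were in the test against a 2-fold change in D150-ROs against D70-ROs, with edgeR adjusted p = 0.0425 for PDE6H and 0.0226 for GNAT2. Upper-quartile scaling moved the median log2 change of all genes to 0.12, -0.11 and -0.14 in D70-ROs against hiPSCs, D150-ROs against D70-ROs and iMGCs against D150-ROs.

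The difference in cone share between D150-ROs and D70-ROs was 10.1 points. It was 15.8 points with expected counts. It turned to -31.9 points without GNB1, which by construction removes most of the rod sum of D70-ROs. Leaving out 1 library gave 6.45 to 13.0 points. With so few libraries this test cannot pass 0.05 under any setting.

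Leaving out 1 library moved some large changes by more than 1.5-fold, where the low group rested on few counts. Without hiPSC replicate 3, the log2 change from hiPSCs to D150-ROs was 8.40 for GNAT2 and 7.96 for CNGB3. In iMGCs the lowest values of GNGT2, GUCA1C and PDE6C without 1 library were -10.79, -10.18 and -8.55. With P1 iMGCs alone GNGT2 changed by -11.58 and GUCA1C, which had no count there, by a fitted -12.55 that depends on the prior count. limma on log2(FPKM + 1) gave smaller changes for low genes, such as 1.58 for CNGA3 in D70-ROs against hiPSCs and 2.62 for CNGB3 in D150-ROs against D70-ROs.

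With the replicate number as a block, 6, 8, 8, 8 and 0 members were called in the 5 comparisons, so the block changed no call of a member; PDE6H changed by 1.34 between D150-ROs and D70-ROs. Same-numbered libraries correlated between -0.07 and 0.34 in their deviations from group means over 30 pairs, 14 of them best with their own number, so the numbers were not treated as pairing the samples. Counts over all genes moved more: 4276 in D150-ROs against D70-ROs became 2830 in the test against a 2-fold change, and 332 between passages became 694 with no filter, 152 with limma on log2(FPKM + 1) and 161 in the test against a 2-fold change. Depth limits what can be said of OPN1SW, of members in iMGCs and of rod genes in D70-ROs.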
